A study of Actinidia chinensis with 12 samples.

Results

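The flesh core of the red-fleshed kiwifruit cultivar Hongyang was compared with Hongyang whole fruit by RNA sequencing, using 6 of the 12 libraries of the series, taken by their labels: 3 of the core and 3 of whole fruit. All came from ripened fruit of Actinidia chinensis sampled at harvest, with no treatment named. The other 6 libraries, 3 of core and 3 of whole fruit of the cultivar Jinyan, entered the fit and serve below as a separate measurement of the same tissue contrast. The labels say whole fruit where the series' own design text contrasts core with periphery, and they do not say whether core tissue was part of those samples or whether replicates came from separate fruits. The p-values therefore measure the spread between libraries, which may be technical. In the main fit that spread was estimated over all 12 libraries, not from the Hongyang libraries only.

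In a kiwifruit the core is the pale central column, surrounded by an inner pericarp that carries the locules and seeds, then by an outer pericarp and the skin. In Hongyang the red anthocyanin pigments gather in the inner pericarp around the core. A whole fruit sample can thus hold seed, skin and pigmented tissue besides core, and in bulk RNA fewer cells of a type and less RNA per cell cannot be told apart. The label flesh core does not say where the core samples were cut, so they may hold some of the tissue around the core. The count table gives gene identifiers alone and pairs them with no names, so pigment, seed, skin and vascular genes could not be looked up, the labelled tissues could not be checked against marker genes, and results are given for groups of genes and for 5 identifiers.

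Library totals were 13438624, 21222578 and 21045936 counts in core replicates 1, 2 and 3, against 11616051, 18405374 and 1888744 in whole fruit replicates 1, 2 and 3. The third whole fruit library was thus the shallow one, and 1 count there was worth 0.396 CPM (counts per 1000000, scaled by edgeR's TMM factors), against 0.0473 to 0.0753 CPM in the other Hongyang libraries. Of 39040 identifiers, 22199 passed the filter on low counts.

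The 3 core libraries were alike and the 3 whole fruit libraries were not. Across the tested genes, Spearman's rho was 0.966 to 0.980 among core libraries. Whole fruit replicate 2 reached 0.944 to 0.955 with the core libraries, close to its 0.949 with whole fruit replicate 1 and above its 0.833 with whole fruit replicate 3. Whole fruit replicate 1 stood at 0.910 to 0.926 with the core libraries, and whole fruit replicate 3 at 0.810 to 0.830. Depth differed between these libraries, so every library was also thinned at random to the smallest total. At equal depth rho was 0.937 to 0.950 among core libraries, 0.916 to 0.925 between them and whole fruit replicate 2, 0.888 to 0.902 for whole fruit replicate 1 and 0.799 to 0.818 for whole fruit replicate 3, the same order. These correlations run across genes, which are not independent replicates, and are given as a description.

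**Figure D1:**
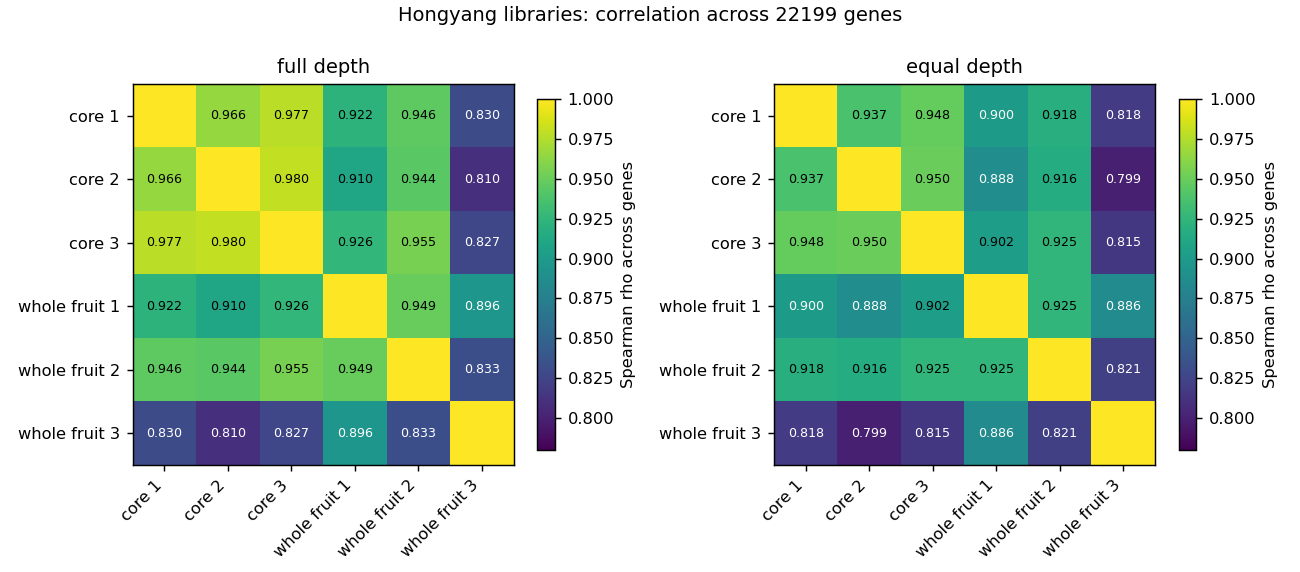
Spearman's rho across 22199 genes between each pair of Hongyang libraries, at full depth (left) and with every library thinned to 1888744 counts (right). The core block is uniform, whole fruit replicate 2 stands nearest to it, and whole fruit replicate 3 stands at 0.799 to 0.818 from the core libraries at equal depth.

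The spread within the groups differed accordingly. The median gene had an SD of log2(CPM + 0.5) of 0.22 over the 3 core libraries and 0.55 over the 3 whole fruit libraries, and the SD was smaller in the core than in whole fruit for 82.0% of genes. Among the 6508 genes that averaged 20 CPM or more, the medians were 0.16 in the core and 0.43 in whole fruit. Estimated by edgeR from each group's own libraries, the biological coefficient of variation was 0.242 in the core and 0.513 in whole fruit. It was 0.668, 0.496 and 0.370 in whole fruit without replicates 1, 2 and 3.

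The contrast tested was core minus whole fruit, as the libraries are labelled. In Hongyang, edgeR called 1039 of 22199 genes (4.68%) at an adjusted p under 0.05, with 554 genes higher in the core (2.50% of genes tested) and 485 lower (2.18%). The spread behind these calls was shared over the 4 groups, of which Hongyang whole fruit varied most. The adjusted p-values may therefore be too low and the number of calls too high. The differences were large: 445 higher and 416 lower genes differed at least 2-fold, and 100 higher and 162 lower genes at least 8-fold. The median log2 fold change was 1.55 in the higher genes and -2.03 in the lower genes, and the median absolute log2 fold change over all genes tested was 0.44. All 3 core libraries lay above all 3 whole fruit libraries in 553 of the 554 higher genes, and below them in 427 of the 485 lower genes. This separation was frequent in general, since 24.9% of all genes tested had no overlap between the groups (14.4% with the core above and 10.5% with the core below).

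The number of calls and their direction rested on which libraries were used. When the 6 Hongyang libraries were fitted alone, so that no tighter Jinyan group lent its spread, 76 of 20752 genes passed (0.366%), 11 higher in the core and 65 lower. Leaving out whole fruit replicate 2 gave 4370 genes, whereas leaving out replicate 1 gave 175, and leaving out core replicates 1, 2 and 3 gave 639, 266 and 360. Lower genes outnumbered higher ones without whole fruit replicate 1 (55 higher, 120 lower), whole fruit replicate 3 (507 and 654) or core replicate 2 (122 and 144). With library totals in place of TMM factors, the share of calls that were higher in the core was 35.1%, where TMM gave 53.3%, and the median gene moved to -0.19 on the log2 scale.

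**Figure D2:**
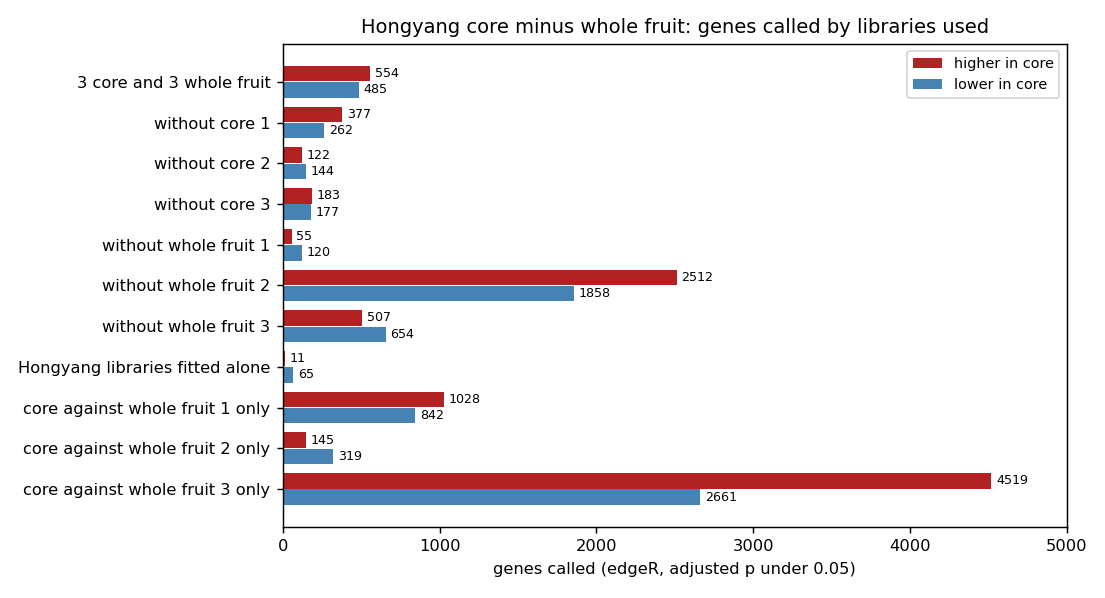
Number of genes called by edgeR at an adjusted p under 0.05 as higher (red) or lower (blue) in the Hongyang core, for all libraries, for each library left out, for the Hongyang libraries fitted alone, and for the core against each whole fruit library by itself. The bars run from 11 genes to 4519 genes, and the core against whole fruit replicate 3 alone gave the most in both directions.

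Each whole fruit library was then set against the core by itself, in a fit in which it formed its own group. Such a fit assumes that the lone library varies like the other groups, and it compares that library, not the tissue, with the core. The groups that supply the spread varied less than Hongyang whole fruit. Their biological coefficients of variation were 0.242 in the Hongyang core, 0.235 in the Jinyan core and 0.164 in Jinyan whole fruit, against 0.513. The counts of called genes may therefore be too high. The 3 comparisons share the core libraries. The core against whole fruit replicate 1 gave 1870 genes (8.42%), of which 1028 were higher in the core and 842 lower. The core against whole fruit replicate 2 gave 464 genes (2.09%), with 145 higher in the core and 319 lower. The core against whole fruit replicate 3 gave 7180 genes (32.3%), with 4519 higher and 2661 lower, and here the median over all genes was shifted to 0.29 on the log2 scale. The balance of directions for replicates 1 and 3 turned with the scaling: with library totals in place of TMM factors, 627 genes were higher and 1536 lower in the core against replicate 1 (median over all genes -0.22), 90 and 240 against replicate 2 (0.03), and 2711 and 4370 against replicate 3 (-0.10). At equal depth, with 14935 genes tested, the median against replicate 3 was 0.04 and the 3 counts were 1077, 360 and 5734, so whole fruit replicate 3 kept the largest count after the others had been thinned to its total. The called genes had a median absolute log2 fold change of 1.74, 1.80 and 1.69 for whole fruit replicates 1, 2 and 3. Calling by adjusted p favours larger differences, so these medians cannot compare how far the libraries lay from the core. Over all genes tested, the lower and upper quartiles of core mean minus library, on the log2 scale, were -0.41 and 0.43 for replicate 1. They were -0.33 and 0.36 for replicate 2, and -0.58 and 1.16 for replicate 3, the shallow library.

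Among the 554 genes called higher in the core, the core mean exceeded whole fruit replicate 1 by a median of 1.46, replicate 2 by 1.12 and replicate 3 by 1.96 on the log2(CPM + 0.5) scale. Replicate 2 was the nearest of the 3 to the core mean in 380 of these genes (68.6%), and replicate 3 was the farthest in 413 (74.5%). Over all genes tested, replicate 2 was nearest in 49.96% and replicate 3 farthest in 63.2%. Among the 485 genes called lower in the core, the median differences were -2.06, -1.48 and -1.48 for whole fruit replicates 1, 2 and 3. There replicate 1 was the farthest in 253 genes (52.2%), against 20.04% of all genes tested. Replicate 2 was the nearest in 225 of the lower genes (46.4%) and replicate 3 in 219 (45.2%), where replicate 3 was nearest in 15.4% of all genes tested. Replicate 3 lay inside the range of the core libraries in 43 of the lower genes and in 0 of the higher ones, and replicate 2 in 7 and 1. Over all genes tested, 35.2% of values of replicate 2, 28.2% of replicate 1 and 16.1% of replicate 3 lay inside the core range. The genes were called on these libraries, so these figures describe the calls and test nothing.

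**Figure D3:**
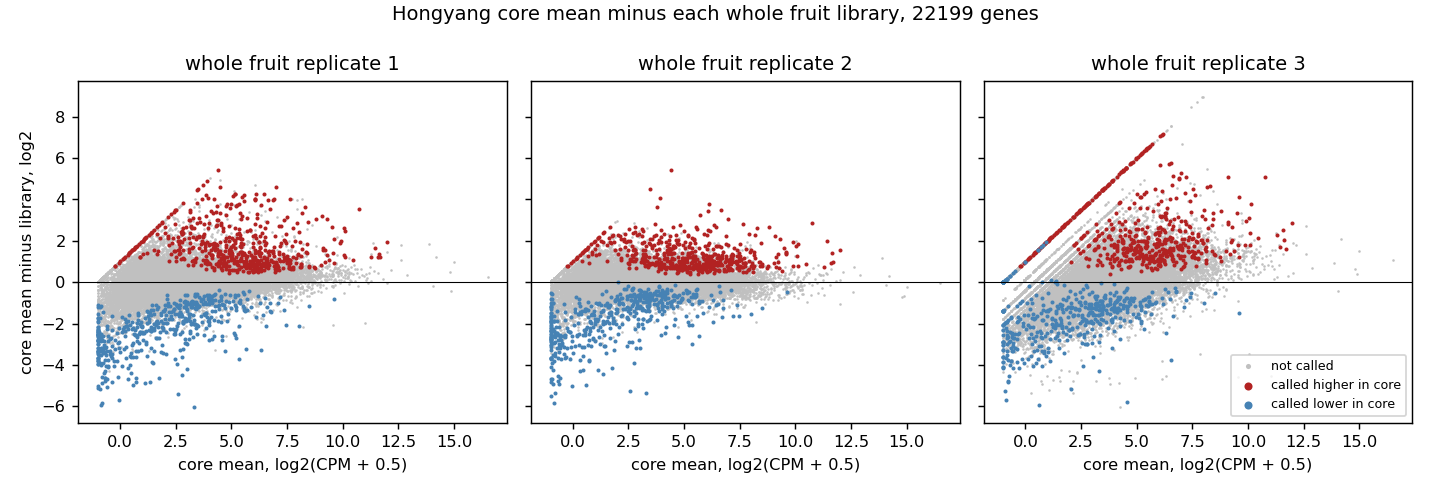
Difference on the log2 scale between the Hongyang core mean and each whole fruit library (y axis) against the core mean as log2(CPM + 0.5) (x axis), 1 panel per whole fruit replicate, with the called genes in red (higher in core) and blue (lower in core). The cloud is narrowest for replicate 2 and widest for replicate 3, where the straight upper edge holds genes with 0 counts in that library, among them 125 of the genes called higher in the core.

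Whole fruit replicate 3 had no reads for some genes that were well expressed in the core. Of 6503 genes with a core mean of at least 20 CPM, and with every library at equal depth, 70 had 0 counts in whole fruit replicate 3, 5 in replicate 1, 2 in replicate 2 and 0 in each core library. Where the core averaged 50 CPM or more, 19 of 2939 genes had 0 counts in replicate 3 and 0 genes did in any other Hongyang library. The 70 genes had median levels of 36.5, 40.9 and 26.7 CPM in core replicates 1, 2 and 3, against 3.05 CPM in whole fruit replicate 1, 10.7 CPM in replicate 2 and 0 CPM in replicate 3. Replicate 1 lay below replicate 2 in 69 of the 70, against 63.0% of the 6503 genes, and replicate 2 lay below the lowest core library in 65 of the 70. The set was chosen after these values were seen. A count of 0 allows up to 1.19 CPM in whole fruit replicate 3 (3 counts, counting error only). The high core level and the 0 in replicate 3 were fixed by how the genes were chosen, and the values of replicates 1 and 2 were not.

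The order of replicates 1 and 2 was also read in larger sets of genes, chosen by replicate 3 against the core. In 4973 genes whole fruit replicate 3 stood at least 2-fold below the lowest core library, and in 73.2% of them replicate 1 was below replicate 2, against 51.2% of all genes tested. In 2543 genes replicate 3 stood at least 2-fold above the highest core library, and in 81.3% of them replicate 1 was above replicate 2, against 47.3% of all genes. The median difference of replicate 1 minus replicate 2 was -0.38 in the genes where replicate 3 was below the core, 0.63 in those where it was above, and -0.02 over all genes, on the log2 scale. Replicates 1 and 2 had no part in choosing either set. At equal depth and without TMM factors the medians were -0.19 in 3513 genes and 0.75 in 3950 genes, against 0.18 over all genes.

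The Jinyan libraries give the tissue contrast in other samples. In the genes where Hongyang whole fruit replicate 3 was at least 2-fold below the core, the Jinyan core mean exceeded the Jinyan whole fruit mean in 70.6%, against 52.0% of all genes tested. In the genes where it was at least 2-fold above, the Jinyan core mean was below the Jinyan whole fruit mean in 84.9%, against 47.3% of all genes. Taken over all 22199 genes, the fitted difference of the Hongyang core minus whole fruit had the sign of the Jinyan difference in 64.1% for replicate 1 and 65.3% for replicate 3, but in 46.6% for replicate 2. Among the genes called against each library, the shares were 80.3%, 60.3% and 79.8% for replicates 1, 2 and 3. The difference between these shares was not tested, since genes are not replicates.

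Of the 554 genes called higher in the Hongyang core, 182 (32.9%) were also called higher in the Jinyan core and 26 (4.69%) were called lower there, where 16.6% of all genes tested were called, 8.15% higher and 8.46% lower. Of the 485 genes called lower in the Hongyang core, 166 (34.2%) were called lower in Jinyan and 8 (1.65%) higher. The median Jinyan log2 fold change was 0.64 for the genes higher in the Hongyang core and -0.77 for the lower ones. In all, 798 of the 1039 genes (76.8%) had the same sign in Jinyan, against 63.3% of all genes. The cultivars share no library in this comparison, but the fit gave them 1 estimate of each gene's spread. When each cultivar was fitted alone, 60 genes called in Hongyang were also tested in Jinyan. Only 11 of the 60 were higher in the Hongyang core, so their shares describe mostly genes lower in the core. Of all 60, 52 (86.7%) had the same sign in Jinyan, against 64.0% of the 18744 genes in both fits. In Jinyan 42 of the 60 were called in the same direction and 2 in the opposite one, where 35.0% of the genes were called. The interaction of tissue and cultivar tests whether the difference depends on the cultivar. It passed for 80 genes higher (14.4%) and 78 genes lower (16.1%) in the Hongyang core, and for 2.25% of all genes tested. The interaction contains the Hongyang difference on which these genes were called, so a larger share among them follows in part from their choice.

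**Figure D4:**
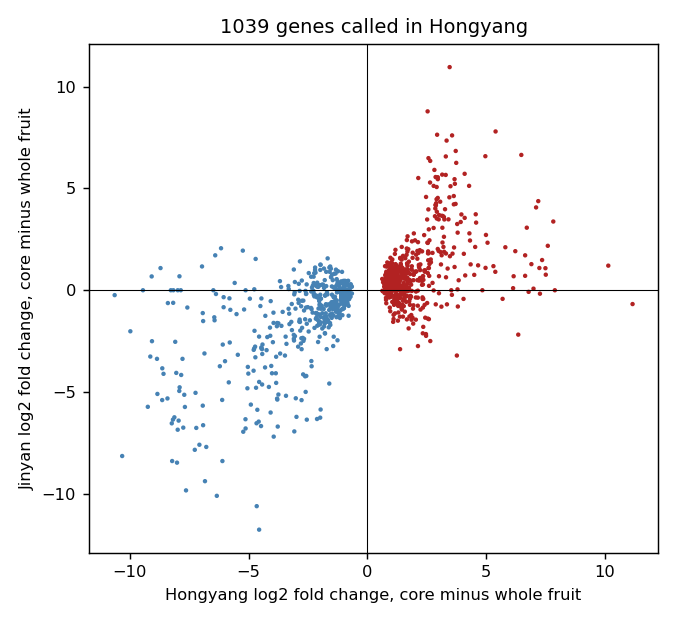
Log2 fold change of core minus whole fruit in Jinyan (y axis) against the same quantity in Hongyang (x axis) for the 1039 genes called in Hongyang, with genes higher in the Hongyang core in red and lower in blue. Most points lie in the quadrants of equal sign, 422 of the 554 higher genes and 376 of the 485 lower genes.

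Called genes were found at every level of expression. The share called was 2.00% below a mean of 1 CPM and 9.15% at 100 CPM or more. Low genes had large differences, with a median absolute log2 fold change of 6.48 in called genes below 1 CPM, where fitted values depend on the prior count, against 1.32 at 100 CPM or more. Of the 1279 genes at 100 CPM or more, 92 were higher in the core and 25 lower. From 1 to 5 CPM the balance was the other way, with 58 higher and 133 lower. Both balances come from the main fit with TMM factors and were not examined with other scalings or library sets.

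The genes called higher in the core made up 5.72, 10.2 and 6.59% of counts in core replicates 1, 2 and 3, against 3.02, 3.03 and 2.22% in whole fruit replicates 1, 2 and 3. The genes called lower made up 0.685, 0.604 and 0.697% in the core libraries, against 2.65, 1.64 and 2.60% in the whole fruit libraries. Genes without a call thus held 89.2 to 93.6% of counts in the core libraries and 94.3 to 95.3% in the whole fruit libraries. Of the 10 most abundant genes of the core, 8 were among the 10 most abundant of whole fruit. Among the 50 most abundant genes of the core, 10 were called, and among the 50 most abundant of whole fruit, 5, where 4.68% of all genes tested and 9.15% of those at 100 CPM or more were called.

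The number of genes detected did not separate the tissues. At equal depth 21626, 21624 and 21912 genes were detected in core replicates 1, 2 and 3, against 21831, 21789 and 19172 in whole fruit replicates 1, 2 and 3. Whole fruit replicate 3 was the low one, and the other whole fruit libraries lay within the core range (difference of means 790, two-sided exact permutation p = 0.8, adjusted p = 0.8 over 2 tests). The 10 most abundant genes held 27.4, 23.8 and 26.0% of counts in the core libraries, against 24.3, 28.8 and 27.9% in the whole fruit libraries, with overlap (exact permutation p = 0.5, adjusted p = 0.8). With 3 libraries against 3 the smallest possible p is 0.1.

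Complete absence of reads on either side was rare. Of the genes tested, 56 had 0 counts in all whole fruit libraries and counts in every core library, and 46 had 0 counts in all core libraries and counts in every whole fruit library. The highest mean among these was 21.6 CPM in the core and 14.5 CPM in whole fruit. Depth was uneven and whole fruit replicate 3 shallow, so the numbers of such genes cannot be compared between the tissues. Among the 1039 called genes, 49 had 0 counts in all core libraries and 26 had 0 counts in all whole fruit libraries. Among the 56 genes without counts in whole fruit, the one with the highest core mean was Achn333721. It stood at 19.9, 30.6 and 14.4 CPM in core replicates 1, 2 and 3 against 0 counts in each whole fruit library, the widest gap between groups among the genes higher in the core. Against the limit of 3 counts over the whole fruit libraries it was at least 248-fold higher in the core (edgeR adjusted p = 0.00015), and at least 149-fold and 118-fold higher without whole fruit replicates 1 and 2. In Jinyan it stood at 1.21 ± 0.73 CPM in the core and 2.02 ± 0.75 CPM in whole fruit (SD, n = 3 each), and the interaction passed (edgeR adjusted p = 0.00085).

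The widest gap among genes lower in the core belonged to Achn105791. It had 0.151, 0 and 0 CPM in core replicates 1, 2 and 3 (2 counts in all), against 32.6, 16.2 and 27.4 CPM in whole fruit replicates 1, 2 and 3. Every whole fruit library was far above the core, replicate 2 the least so. The counts pooled over each group and scaled to library size were 649-fold higher in whole fruit than in the core, with a 95% exact binomial interval of 179 to 5369 that covers counting error only (edgeR adjusted p = 1.39e-05). Without core replicates 2 and 3 the ratio was 405 and 400, and without core replicate 1, where the core has 0 counts, whole fruit was at least 329-fold higher. In Jinyan the gene was low in both tissues, at 0.662 ± 0.22 CPM in the core and 0.393 ± 0.15 CPM in whole fruit (SD, n = 3 each), and the interaction passed (edgeR adjusted p = 0.00042).

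The most abundant gene higher in the core without overlap was Achn203341, the gene of rank 18 over the 6 libraries. It stood at 2451, 8278 and 3278 CPM in core replicates 1, 2 and 3, against 1050, 1372 and 560.3 CPM in whole fruit replicates 1, 2 and 3. Core replicate 2 was the highest, and whole fruit replicate 2 came nearest to the core. The log2 fold change was 2.23 ± 0.42 (SE; edgeR adjusted p = 0.013), and it was 1.52 without core replicate 2 (adjusted p = 0.044). The call was lost without whole fruit replicate 1 (log2 fold change 2.27, adjusted p = 0.072) and with Hongyang fitted alone (2.21, adjusted p = 0.16), within a range of 2.3e-06 to 0.16 over 16 alternatives. In Jinyan it stood at 545 ± 14 CPM in the core and 226 ± 18 CPM in whole fruit (SD, n = 3 each; edgeR adjusted p = 0.05002).

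The most abundant gene lower in the core without overlap was Achn238811, at 819, 713 and 819.7 CPM in core replicates 1, 2 and 3 against 1390, 1082 and 2182 CPM in whole fruit replicates 1, 2 and 3. For this gene replicate 2 was the whole fruit library nearest to the core and replicate 3 the farthest. The log2 fold change was -0.98 ± 0.26 (SE; edgeR adjusted p = 0.047). The call was lost when any core library was left out (adjusted p of 0.10, 0.18 and 0.13 without core replicates 1, 2 and 3), without whole fruit replicate 1 (0.11) or 3 (0.056), with the replicate block (0.059) and with Hongyang fitted alone (0.25), and the range over 16 alternatives was 0.0025 to 0.25. Achn022471, the most abundant gene of all, stood at 98807, 85847 and 95507 CPM in core replicates 1, 2 and 3 against 77869, 94731 and 43758 CPM in whole fruit replicates 1, 2 and 3. The groups overlapped through whole fruit replicate 2, and the gene was not called (log2 fold change 0.37 ± 0.41, SE; edgeR adjusted p = 0.62).

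**Figure D5:**
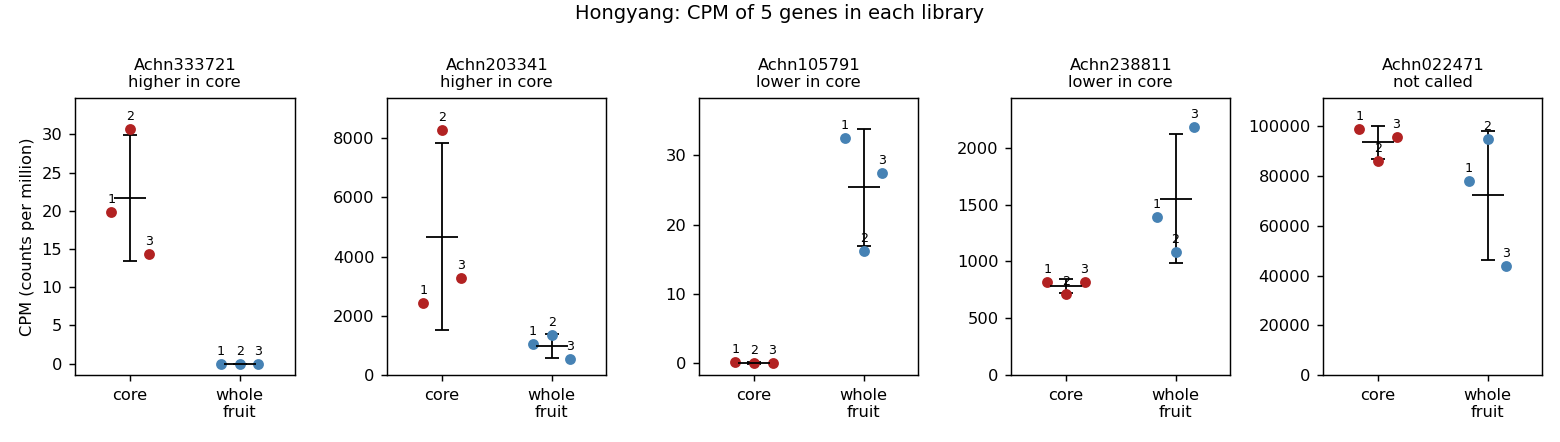
CPM of 5 genes in each Hongyang library, with core at the left (red) and whole fruit at the right (blue) of each panel, replicate numbers beside the points, and the mean and SD of 3 libraries in black. In Achn203341, Achn105791, Achn238811 and Achn022471 whole fruit replicate 2 is the whole fruit library nearest to the core values.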

How the data were processed

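Raw counts per gene, in 1 column per library, are what the authors deposited; the description label ties each column to its sample. Per the submitters' processing notes, Trimmomatic 0.36 and HISAT2 2.1.0 were used for trimming and alignment. The sources used here give neither counting program, build, annotation nor strand setting, and nothing on multi-mapped reads, so copies of a gene and overlapping genes are uncertain. After filterByExpr over the 4 groups (99.9% of counts retained) and TMM scaling, edgeR 4.0.16 (R 4.3.3) fitted 1 quasi-likelihood model to all 12 libraries, two-sided, with Benjamini-Hochberg adjustment over 22199 genes. The SE of a log2 fold change was derived from the F statistic. A second model gave each Hongyang whole fruit library a group of its own. Equal depth means binomial thinning to 1888744 counts. The scripts were tested on simulated data. For the second model these data had 1 spread, taken without Hongyang whole fruit, so that model was not tested at the larger spread of those libraries. Alternatives used limma 3.58.1, DESeq2 1.42.0, other scalings, filters and library sets.

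The genes named are, in each direction among called genes without overlap, the one with the widest gap between the groups (log2 ratio of the nearest libraries with 0.5 CPM added, group mean of at least 20 CPM) and the one with the highest mean CPM, plus the most abundant gene. Members, lists and rules were chosen with earlier results of these data known. Intervals and limits cover counting error only, because reads are not independent molecules. Which sequencer read which library is not stated, so no batch could be examined.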

Additional observations from a re-analysis of the deposited data

Results flagged for a closer look

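For 2 of the 5 named genes the tissue difference differed between the cultivars by edgeR's interaction test. For Achn333721 the Hongyang difference of core minus whole fruit exceeded the Jinyan difference by 11.84 on the log2 scale (adjusted p = 0.00085, and 2.1e-11 to 0.0059 over 15 alternatives), a fitted value that depends on the prior count because Hongyang whole fruit had 0 counts. For Achn105791 the interaction was -9.76 (adjusted p = 0.00042, and 3.2e-12 to 0.043 over 15 alternatives), with 2 counts in the Hongyang core.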

How the results depend on the processing

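The 1039 calls became 76 with the Hongyang libraries alone, 2592 with DESeq2 and 6115 with limma voom and sample weights. They were 175 to 4370 with 1 library left out. Fewer libraries stand behind each reduced fit, and the causes of these changes were not tested. The share higher in the core was 56.5% with RLE factors, 35.1% with library totals and 14.5% with Hongyang alone, and 31.4 to 59.0% with 1 library left out. The same-sign share in Jinyan was 86.7% in separate fits and 69.3 to 83.2% with 1 library left out. Against single whole fruit libraries, replicate 1 gave 1077 genes at equal depth and 1216 to 2142 with a core library left out. Replicate 2 gave 740 genes without a filter, 759 with halved counts (in case both reads of a pair had been counted) and 206 to 564 with a core library left out, and replicate 3 gave 6091 to 7037. The difference in genes detected (core minus whole fruit) was -24 at a threshold of 2 counts and -89.3 to 1240 with 1 library left out. That in the share of the 10 most abundant genes was 0.783 for the 50 most abundant, and -2.59 to -0.28 with 1 library left out; the alternatives for both measures were chosen after seeing the data.

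With the replicate number as a block, 854 genes were called and 57.4% of them were higher in the core. Deviations of same-numbered core and whole fruit libraries from their group means correlated at -0.03, 0.08 and -0.03. Those of core replicate 1 and whole fruit replicate 3 correlated at 0.08. With 3 libraries a group, such values cannot tell whether same-numbered libraries were paired, and the labels do not say. The shallow whole fruit replicate 3 limits statements on genes below about 1.19 CPM there.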

Other observations

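The sample weights that limma voom estimated were 0.837, 0.786 and 2.45 for Hongyang core replicates 1, 2 and 3, and 2.25, 0.228 and 0.31 for Hongyang whole fruit replicates 1, 2 and 3. Whole fruit replicates 2 and 3 had the lowest weights of the 12 libraries, so the voom calls in Hongyang leaned on whole fruit replicate 1.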
